A study of Sus scrofa with 12 samples.

Results

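The genes described here are the chemokines, the interleukins and their receptors, as measured in the endometrium of sows on Day 14 after insemination. They are the 54 genes, of 6765 with a named probe set, whose symbol on the array's platform annotation begins with CCL, CXCL, CX3C, CCR, CXCR or IL followed by a number (a CX3C symbol needs none), without IL1A, IL1B and CCL28. Where a gene had several probe sets, as 6 of the 54 did among 61 probe sets, the brightest on average stands for it. No CX3C gene was among them. By role they were 11 CC chemokines, 7 CXC chemokines, 7 chemokine receptors, 16 interleukins, 12 interleukin receptor chains and the interleukin-18 binding protein IL18BP, a secreted antagonist.

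The study compared 6 pregnant sows with 6 non-pregnant sows that had received inactivated semen. Each group held 3 Yorkshire and 3 Landrace sows, and age and parity are not given in the sources used here. Endometrium without the muscle layer was taken at the ovarian end, the middle and the lower end of both flushed uterine horns. Attachment sites were visible as reddened zones in pregnant sows, non-pregnant sows were sampled at matching places, and 1 Affymetrix array was hybridised per sow. All values are log2 expression values made by RMA, which gives every array nearly the same distribution, so a difference of 1 is a 2-fold difference of signal, measured against the bulk of the array.

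Chemokines are small secreted proteins that bind to G protein-coupled receptors on leukocytes and set the direction in which these cells move. Interleukins act through receptor chains on the cell surface, many of which signal through Janus kinases and STAT factors, while the interleukin-1 and interleukin-18 receptors signal through MYD88 and NF-kappa B. In the pig, elongating conceptuses secrete an interleukin-1 beta and later interferons into the uterine lumen, and endometrial lymphocytes gather around attachment sites in early gestation. In whole tissue a change in the number of cells of a type and a change of RNA per cell cannot be told apart.

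Before any comparison, 1 animal has to be described, because it set many of the values. Non-pregnant sow 7, a Landrace sow, had the highest value of the 12 sows for 30 of the 54 genes (55.6%), whereas it was the highest for 10.2% of all 23999 probe sets tested. Each of the other 11 sows was the highest for between 0 and 7 of the genes. Sow 7 lay more than 2 log2 units above every other sow for 9 of the 54 genes (16.7%), against 0.179% of all probe sets, and lay that far below every other sow for none of them. The median SD of the genes among the non-pregnant sows was 0.341 with sow 7 and 0.179 without it, beside 0.198 among the pregnant sows. A second animal, the Yorkshire sow 12, was labelled pregnant but lay apart from the other pregnant sows for some genes that changed with pregnancy. The calgranulin S100A9 was at 7.72 in it, at 12.06 to 12.79 in the other 5 and at 3.16 to 3.91 in the non-pregnant sows other than sow 7. Calls among the 54 genes that changed with either sow are given with and without it.

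**Figure D1:**
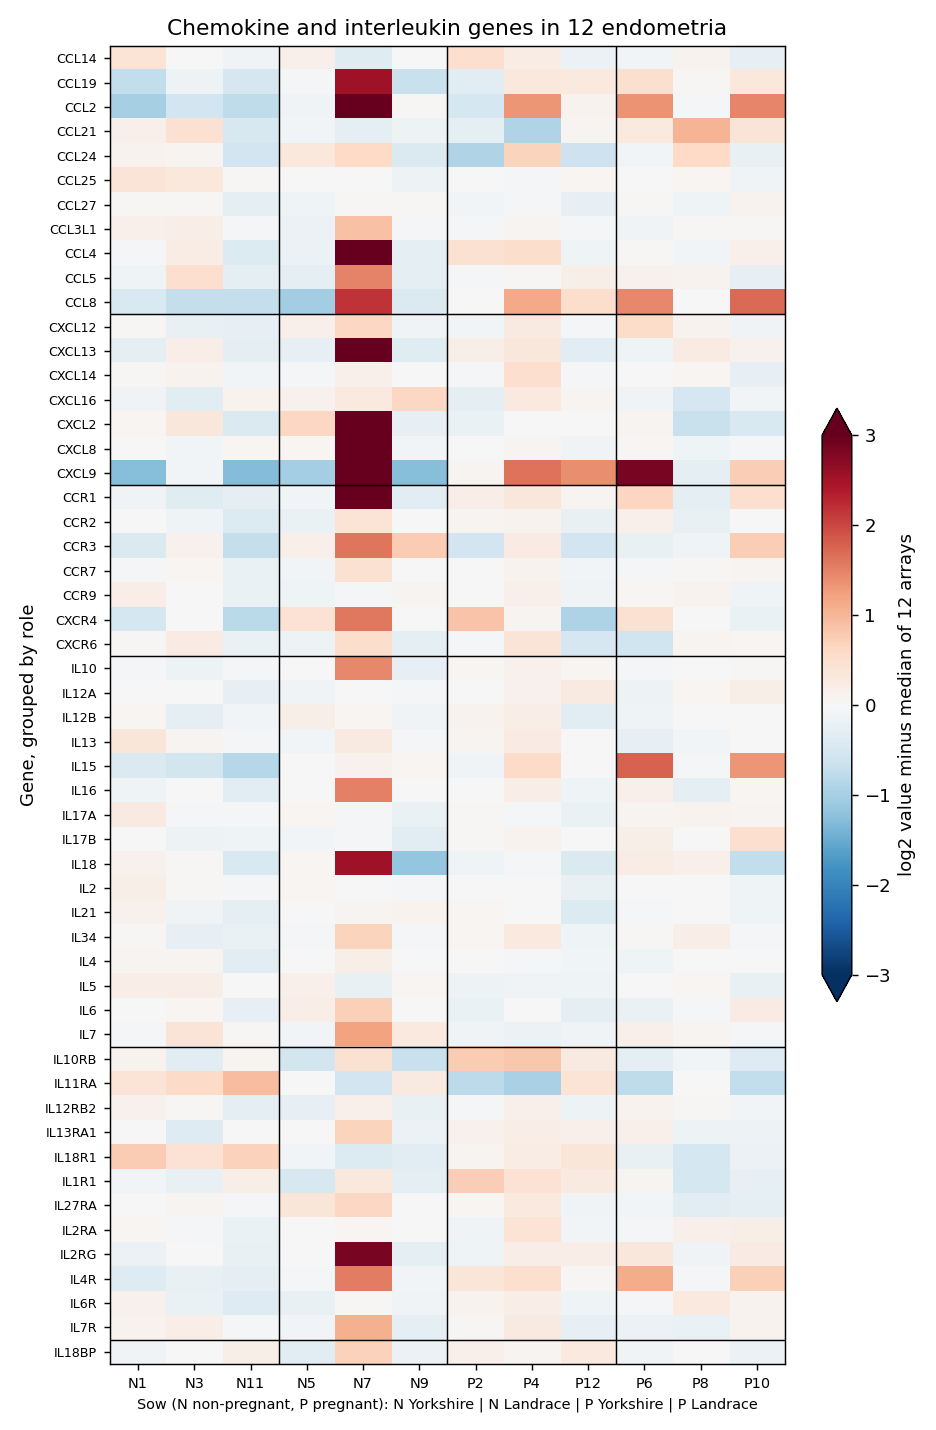
Heat map of the 54 genes (rows, grouped by role) in the 12 sows (columns, N non-pregnant and P pregnant, by breed). Colour is the log2 value minus the gene's median over 12 arrays, cut at 3 in either direction, and the column of non-pregnant sow 7 is the highest of its row for 30 genes.

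The widest gaps were those of CXCL13 and CXCL8. CXCL13, which draws B cells to lymphoid follicles, was at 12.59 in sow 7 and between 5.79 and 6.49 in the other 11 sows, a gap of 6.10 to the next sow. A second CXCL13 probe set gave 10.71 in sow 7 and at most 3.17 elsewhere. CXCL8, the neutrophil attractant interleukin-8, was at 8.64 in sow 7 and between 2.91 and 3.11 in the others, all below the lower quartile of their array (4.58 to 4.71), and so among its dimmest probe sets. CXCL2, another neutrophil attractant, was at 7.67 in sow 7 and between 3.78 and 5.06 in the others. So the CXCL8 signal stood clear of the dimmest probe sets in 1 of 12 endometria.

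Among CC chemokines and their receptors the same sow stood out. CCL2, a monocyte attractant, was at 10.67 in sow 7 and between 6.08 and 8.53 in the other 11. CCL4, which attracts macrophages and lymphocytes, was at 8.96 against 5.33 to 6.26, and CCL19, a CCR7 ligand that guides T cells and dendritic cells, at 9.71 against 6.44 to 7.65. The receptor CCR1 of monocytes and neutrophils was at 8.52 against 4.74 to 5.75. The other non-pregnant sows lay close together for CCR1, from 4.74 to 5.03.

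Of the interleukin genes, IL18, a cytokine of macrophages and epithelium that the inflammasome releases, was at 8.73 in sow 7 and between 5.02 and 6.42 in the others. IL2RG, the common gamma chain shared by the receptors of interleukins 2, 4, 7, 9, 15 and 21, was at 8.75 against 5.60 to 6.22. IL10, a cytokine that dampens inflammation, was at 6.24 against 4.54 to 4.91, and IL16, a CD4 ligand, at 6.96 against 5.10 to 5.64. For IL6, IL7, IL7R and CXCL8, sow 7 was the only array on which the signal rose above the lower quartile. Genes for which sow 7 did not lie above all other sows included IL15, IL11RA and IL18R1. For IL15 it was at 6.82, the top of the non-pregnant range, with the highest pregnant sow at 8.45. For IL11RA and IL18R1 it was at 9.65 and 4.56, both the lowest of the non-pregnant sows.

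**Figure D2:**
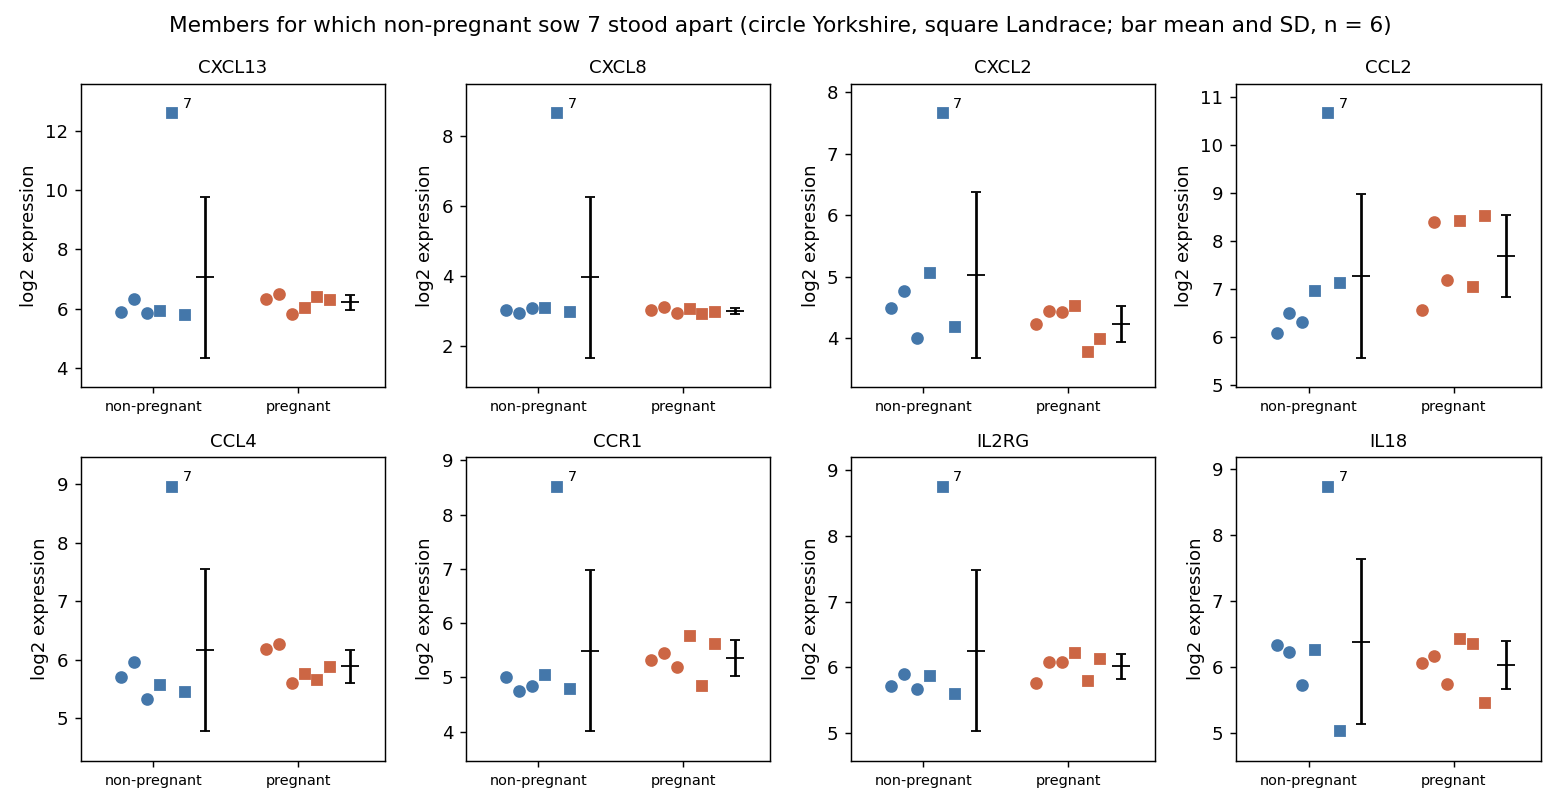
Log2 expression of 8 genes in every sow, by pregnancy status, with Yorkshire sows as circles, Landrace sows as squares and the mean with SD beside each group of 6. The point labelled 7 lies above all other sows in each panel, by 6.10 units for CXCL13, 5.53 for CXCL8 and 2.31 for IL18.

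Leukocyte markers moved with these genes in sow 7. Of the 6 measured general leukocyte markers 5 were highest in sow 7, and the summed level of the list was 11.41 there, between 9.70 and 9.85 in the other non-pregnant and between 9.89 and 10.30 in the pregnant sows. All 6 measured macrophage and monocyte markers were highest in sow 7. Their summed level was 11.90 there against 9.13 to 9.23 and 9.35 to 9.92, and the scavenger receptor CD163 was at 11.11 in it and at most 7.57 in any other sow. Of 9 measured T cell markers 7 were highest there, and their summed level was 10.16 against 8.60 to 8.94 and 8.85 to 9.46, while of the 4 natural killer cell markers 1 was highest there. The neutrophil list was at 9.66 in sow 7, above the 6.56 to 6.91 of the other non-pregnant sows and within the 8.25 to 12.87 of the pregnant sows, but 0 of its 5 markers were highest there. Its 3 calgranulins, which epithelium can also make, were each higher in sow 7 than in the other non-pregnant sows. S100A9 was at 9.35 against 3.16 to 3.91, S100A8 at 6.03 against 4.10 to 5.01 and S100A12 at 5.07 against 4.08 to 4.40. The granule proteins ELANE, at 5.15 in sow 7, and LTF, at 4.40, lay within the range of the other non-pregnant sows (5.06 to 5.45 and 3.93 to 4.66). Beside CXCL13, the 3 measured B and plasma cell markers had a summed level of 10.70 in sow 7, 8.38 to 9.78 in the other non-pregnant and 9.06 to 9.67 in the pregnant sows, with the B cell receptor chain CD79B below the lower quartile on all 12 arrays. The part of these cells in the values of sow 7 was not tested.

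Few of the genes were bright on the arrays. Of the 54, 7 lay below the lower quartile on all 12 arrays (13.0%, beside 20.1% of all probe sets), and all 7 were interleukins, namely IL2, IL4, IL5, IL12A, IL12B, IL13 and IL17A. For these T cell and dendritic cell cytokines the signal was among the dimmest of each array, and a difference between groups may not have been detectable. Above the median on all 12 arrays were 10 genes (18.5%, beside 42.3% of all probe sets). They were the chemokines CCL5, CCL19 and CXCL16, the receptor CXCR4, 5 interleukin receptor chains (IL4R, IL10RB, IL11RA, IL1R1 and IL27RA) and IL18BP. CXCL16, a membrane-bound chemokine of epithelium and macrophages that binds CXCR6, and IL11RA, the receptor that in mice is required for decidualisation, lay above the upper quartile on all 12 arrays.

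The first comparison asked which of these genes differ between pregnant and non-pregnant endometrium. Over all 12 sows none of the 54 passed the threshold (limma, adjusted p under 0.05), while 7.88% of all probe sets did. At an unadjusted p under 0.05 there were 3 (5.56%, beside 23.2%), namely IL15, IL11RA and IL17B. The median log2 difference of the 54 was -0.06, beside 0.01 over all probe sets. Of the 54, 24 lay above 0 (44.4%, beside 52.8%). No gene had pregnant sows wholly above or below the non-pregnant sows, which was so for 2.7% of all probe sets.

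IL15 was closest to the threshold. It codes for a cytokine that sustains natural killer and memory T cells. Its values were 6.58 to 8.45 in pregnant sows with a median of 6.97, and 5.81 to 6.82 in non-pregnant sows with a median of 6.47, so 3 pregnant sows lay within the non-pregnant range. The difference was 0.87 ± 0.25 (SE, adjusted p = 0.0522, limma, n = 6 per group). The highest pregnant values were those of the Landrace sows 6 and 10, at 8.45 and 8.01. Without pregnant sow 8, whose value of 6.65 was next to the lowest of its group, the difference was 1.09 and passed (adjusted p = 0.00577). Leaving out so low a pregnant value widens the difference by construction. With all sows kept, IL15 passed when dim probe sets were left out of the fit (0.87, adjusted p = 0.037). It also passed when arrays were weighted by their fit (0.94, adjusted p = 0.0187). The difference was at its smallest, 0.69, without pregnant sow 6.

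The same pregnant sows, 6 and 10, were those with signal for IFNG, the gamma interferon that pig trophoblast secretes at this stage and that T and natural killer cells make too. IFNG was at 8.21 and 12.65 in them and between 4.00 and 4.26 in the other 4 pregnant sows and between 3.61 and 4.41 in the non-pregnant sows. The trophoblast marker list, with 8 of 12 markers measured, had a summed level of 9.05 and 12.75 in sows 6 and 10, of 7.81 to 7.99 in the other pregnant and of 7.66 to 8.22 in all non-pregnant sows, and IFNG was its highest marker in both of those sows. Of its other markers, GATA3 was at 7.58 in sow 10, at 5.78 in sow 6 and at 5.53 to 5.77 in the other pregnant sows, and the steroidogenic CYP11A1 was at 5.95 in sow 10 and 3.68 to 4.02 in the other 5. CYP17A1 and CYP19A1, the enzymes of conceptus estrogen synthesis, were at 4.73 to 5.26 and 5.08 to 5.42 in all pregnant sows. The part of IFNG in the IL15 values was not tested.

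IL11RA differed in the other direction, with 9.25 to 10.62 in pregnant sows (median 9.47) and 9.65 to 11.14 in non-pregnant sows (median 10.56). The difference was -0.74 ± 0.26 (SE, adjusted p = 0.102). In 4 of the 6 pregnant sows the value lay under 9.5, below every non-pregnant sow, and pregnant sows 8 and 12 were at 10.23 and 10.62. IL17B, a member of the interleukin-17 family, was at 5.92 to 6.43 in pregnant and 5.57 to 5.93 in non-pregnant sows, with a difference of 0.26 ± 0.10 (adjusted p = 0.119). Pregnant sow 10, at 6.43, stood apart from the other 5, which reached 6.11. Of its other 2 probe sets, 1 gave 0.09 (adjusted p = 0.567) and the other 0.26 (adjusted p = 0.433), so no probe set of IL17B passed.

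Leaving out sow 7 changed which of the genes were called. Without it 4 of the 54 rose with pregnancy and 1 fell, which is 9.26% of them, beside 9.19% of all probe sets in the same 11 sows (4.61% higher and 4.58% lower). At an unadjusted p under 0.05 there were then 17 (31.5%, beside 24.9%), and the median difference was 0.08, beside 0.01. Sow 7 had the highest value of its group for each of the 4 and the lowest for IL11RA, so leaving it out widens these differences by construction. Among the fits over both breeds that left out 1 sow, the call depends on this 1 animal for CXCL9, CCL8, IL4R and IL10RB. None of them was called in any of the other 11. With all sows kept but arrays weighted by their fit, CCL8 rose by 1.35 (adjusted p = 0.0450) and the other 3 were not called over both breeds. Within Yorkshire sows, to which sow 7 does not belong, these weights gave a rise of 0.87 for IL10RB (adjusted p = 0.0205). Without weights this Yorkshire difference was 0.66 and was not called. Without both sow 7 and pregnant sow 12, the same 4 rose and CCL4 joined them, by 0.41 (adjusted p = 0.0490), and IL11RA fell by 1.07 (adjusted p = 0.00943).

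**Figure D3:**
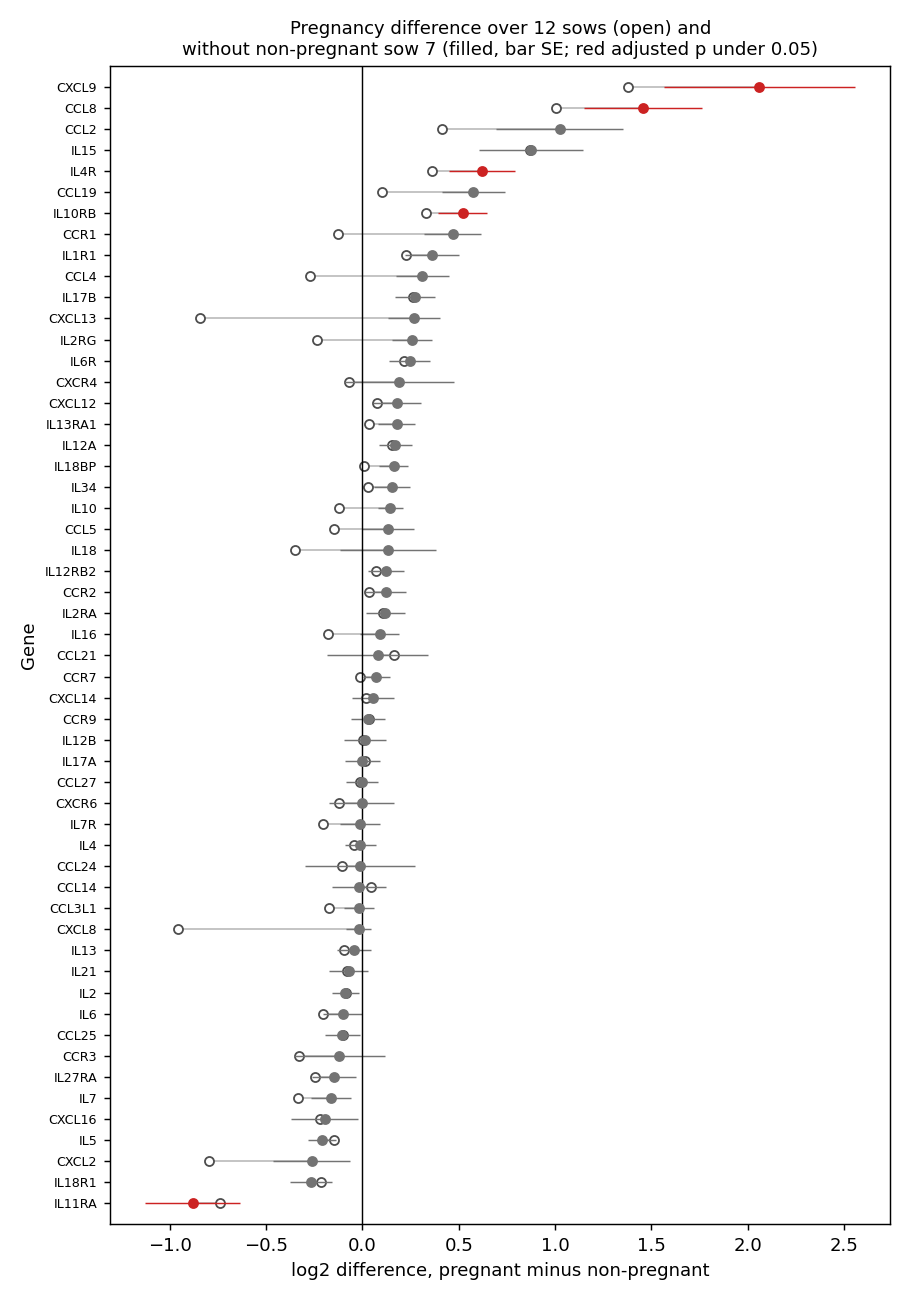
Log2 difference between pregnant and non-pregnant sows for the 54 genes, over all 12 sows (open circles) and without non-pregnant sow 7 (filled circles, bar 1 SE, red where the adjusted p was under 0.05). CXCL9 moved from 1.38 to 2.06 and CXCL13 from -0.85 to 0.27, while IL15 stayed near 0.87.

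CXCL9, an interferon-gamma-induced chemokine that attracts T cells through CXCR3, was at 5.67 to 8.82 in pregnant sows with a median of 7.04. In the non-pregnant sows it was at 4.69, 5.89, 4.95, 9.03, 4.71 and 4.68 in sows 1, 3, 5, 7, 9 and 11. Apart from sow 7, non-pregnant sow 3 was the only animal that reached the pregnant range, above pregnant sow 8 at 5.67. The difference was 1.38 ± 0.75 over all sows (SE, adjusted p = 0.301) and 2.06 ± 0.50 without sow 7 (adjusted p = 0.0271). The highest pregnant sow was 6, at 8.82, and pregnant sow 10, which had the highest IFNG signal, was at 6.70.

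CCL8, a monocyte attractant of the CCL2 family, was at 5.31 to 7.04 in pregnant sows with a median of 6.18. In the non-pregnant sows it was at 4.87, 4.62, 4.30, 7.51, 4.90 and 4.62 in sows 1, 3, 5, 7, 9 and 11. Every pregnant sow lay above the 5 other non-pregnant sows, and sow 7 lay above every pregnant sow. The difference was 1.01 ± 0.48 (adjusted p = 0.235) with it and 1.46 ± 0.30 (adjusted p = 0.0160) without it. In Yorkshire sows it was 1.19 ± 0.70 (adjusted p = 0.477). In Landrace sows it was 0.82 ± 0.70 (adjusted p = 0.665) with sow 7 and 1.80 ± 0.46 (adjusted p = 0.0926) without it, so neither breed passed. CCL2, separated from CCL8 by 1 other protein-coding gene in RefSeq's Sscrofa11.1 annotation, differed by 1.02 ± 0.33 without sow 7 (adjusted p = 0.0756). Its pregnant sows 4, 6 and 10, at 8.40, 8.42 and 8.53, were also the 3 highest pregnant sows for CCL8.

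IL4R, the receptor chain for interleukins 4 and 13, was at 6.87 to 8.03 in pregnant sows with a median of 7.33. The non-pregnant sows 1, 3, 5, 7, 9 and 11 were at 6.53, 6.70, 6.87, 8.44, 6.83 and 6.62. Without sow 7 the groups did not overlap for 2 of the 54 genes, CCL8 and IL4R (3.7%, beside 2.4% of all probe sets with the pregnant sows wholly above), but for IL4R the nearest sows, pregnant sow 8 and non-pregnant sow 5, were level at 6.87. The difference was 0.36 ± 0.27 (adjusted p = 0.494) with sow 7 and 0.62 ± 0.17 (adjusted p = 0.0435) without it. The second IL4R probe set was not called, with 0.02 ± 0.09 over all sows (adjusted p = 0.943) and 0.10 ± 0.07 without sow 7 (adjusted p = 0.409). The ligands IL4 and IL13 lay below the lower quartile on every array, and IL13RA1, the partner chain, differed by 0.04 ± 0.15 over all sows (adjusted p = 0.927) and by 0.18 without sow 7.

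IL10RB, a chain shared by the receptors of interleukin-10, its relatives and the lambda interferons, was at 6.97 to 8.18 in pregnant and 6.68 to 7.81 in non-pregnant sows. Its difference was 0.33 ± 0.20 (adjusted p = 0.376) with sow 7 and 0.52 ± 0.13 (adjusted p = 0.0286) without it. IL11RA fell by 0.88 without sow 7 (adjusted p = 0.0465). Unlike the other 4, it also passed in fits that left out 1 other sow, namely pregnant sow 8 or pregnant sow 12 (adjusted p = 0.0434 and 0.0405). With all sows kept but arrays weighted by their fit, IL11RA fell by 0.88 (adjusted p = 0.0184). Sows 8 and 12 held the highest pregnant values of IL11RA, so leaving out either widens its fall by construction. CCL19 came next, at 0.58 ± 0.16 without sow 7 (adjusted p = 0.0507) and 0.10 over all sows. CCL21, the other CCR7 ligand and the direct neighbour of CCL19 in the annotation, differed by 0.16 ± 0.25 over all sows and 0.08 ± 0.26 without sow 7.

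**Figure D4:**
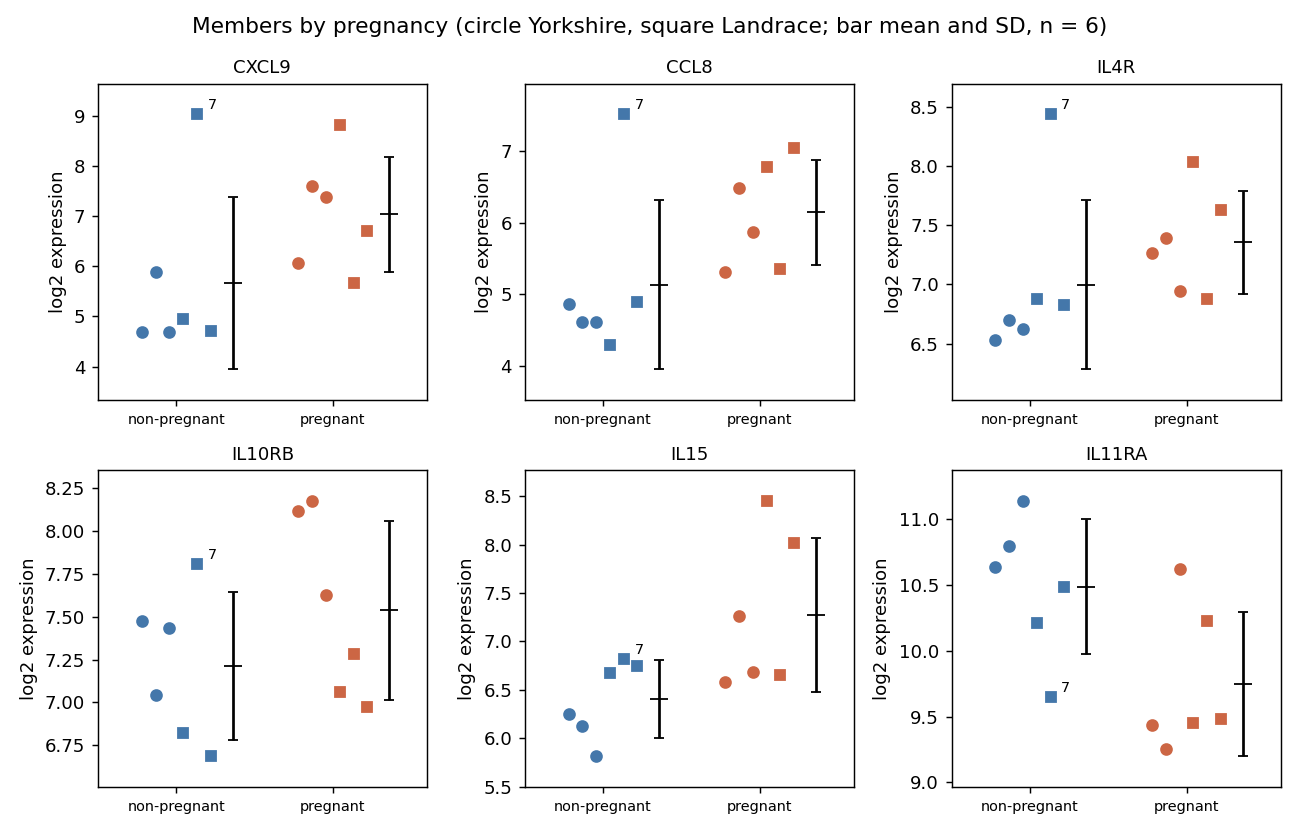
Log2 expression of 6 genes in every sow by pregnancy status, with Yorkshire sows as circles, Landrace sows as squares and the mean with SD beside each group of 6. Non-pregnant sow 7 lies above all pregnant sows for CXCL9, CCL8 and IL4R, and below the other non-pregnant sows for IL11RA, at 9.65.

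For the remaining chemokine receptors no pregnancy difference was detectable. CXCR4, the CXCL12 receptor carried by most leukocytes, was at 6.35 to 8.12 in pregnant and 6.47 to 8.85 in non-pregnant sows, with a difference of -0.07 that became 0.19 without sow 7. CCR1 differed by -0.13 over all sows and by 0.47 ± 0.15 without sow 7 (adjusted p = 0.0708). CCR3 differed by -0.33 ± 0.28 over all sows (adjusted p = 0.553) and by -0.12 ± 0.24 without sow 7 (adjusted p = 0.815). CCR2, CCR7, CCR9 and CXCR6 differed by between -0.12 and 0.04 over all sows, with pregnant sows at 4.12 to 5.86 for the 4 genes. Intervals were wide for the genes that sow 7 set: for CXCL9 the 95% confidence interval over all sows ran from -0.25 to 3.0.

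The ligand CXCL16 was at 8.95 to 9.74 in pregnant and 9.13 to 10.07 in non-pregnant sows, a difference of -0.22 ± 0.16 (adjusted p = 0.470). CXCL12, which guides CXCR4-bearing cells and is made by stroma, differed by 0.07 ± 0.14 and CXCL14 by 0.02 ± 0.11. A second CXCL14 probe set of similar brightness gave -0.38 ± 0.22 over all sows (adjusted p = 0.342) and -0.25 without sow 7, called in neither fit. CCL5, a T cell and natural killer cell product, was at 7.57 to 7.98 in pregnant sows and differed by -0.15 (adjusted p = 0.809). Non-pregnant sow 7, at 9.30, and non-pregnant sow 3, at 8.31, lay above every pregnant sow for CCL5. IL18BP differed by 0.01 ± 0.15 and IL34, a ligand of the macrophage growth factor receptor CSF1R, by 0.03 ± 0.13. Without sow 7 the differences were 0.18 for CXCL12, 0.13 for CCL5, 0.16 for IL18BP and 0.15 for IL34, none of them called.

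IL1R1, through which conceptus interleukin-1 acts, was at 6.97 to 8.25 in pregnant and 7.03 to 7.83 in non-pregnant sows, with a difference of 0.22 ± 0.17 that became 0.36 ± 0.14 without sow 7 (adjusted p = 0.506 and 0.129). IL6R, the interleukin-6 receptor, differed by 0.21 ± 0.10 (adjusted p = 0.231), with its ligand IL6 below the lower quartile on 11 of the 12 arrays. IL27RA was at 6.54 to 7.16 in pregnant and 6.84 to 7.49 in non-pregnant sows, a difference of -0.25 ± 0.14 (adjusted p = 0.312) that became -0.15 without sow 7. IL2RG differed by -0.24 over all sows and by 0.26 ± 0.10 without sow 7 (adjusted p = 0.146). None of these receptor chains passed in either fit.

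The second comparison asked which of the genes differ between the breeds. IL18R1, the ligand-binding chain of the interleukin-18 receptor, was lower in Landrace sows and was the only gene of the 54 called (1.85%, beside 5.15% of all probe sets, and 2.93% lower in Landrace). Its values were 4.46, 4.56, 4.65, 4.77, 4.81 and 4.91 in the Landrace sows 8, 7, 9, 6, 10 and 5. In the Yorkshire sows 2, 4, 12, 3, 11 and 1 they were 5.05, 5.21, 5.34, 5.41, 5.67 and 5.74, so the breeds did not overlap, which was so for 2.98% of all probe sets. The difference, Landrace minus Yorkshire, was -0.71 ± 0.11 (SE, adjusted p = 0.00379, limma, n = 6 per breed). Leaving out any 1 of the 12 sows kept the call, with differences of -0.77 to -0.66. Sow 7, at 4.56, lay inside the Landrace range for IL18R1. At an unadjusted p under 0.05 there were 5 of the 54 genes (9.26%, beside 20.2%), the others being IL15, CCR3, IL10RB and IL1R1.

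The signal of IL18R1 was dim, below the lower quartile on 2 of the 12 arrays. Its ligand IL18 differed by 0.33 ± 0.48 between the breeds (adjusted p = 0.761) and the antagonist IL18BP by -0.11 ± 0.15 (adjusted p = 0.752). Sow 7 set both values, and without it they were -0.15 ± 0.25 (adjusted p = 0.817) for IL18 and -0.26 ± 0.08 (adjusted p = 0.0763) for IL18BP. IL1R1, the interleukin-1 receptor, which lies near IL18R1 with 2 protein-coding genes between them, was at 6.97 to 7.83 in Landrace and 7.28 to 8.25 in Yorkshire sows. Its difference was -0.40 ± 0.17 (adjusted p = 0.213) with sow 7 and -0.54 ± 0.14 (adjusted p = 0.0511) without it. Whether a probe matches the sequence of both breeds equally well was not tested.

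**Figure D5:**
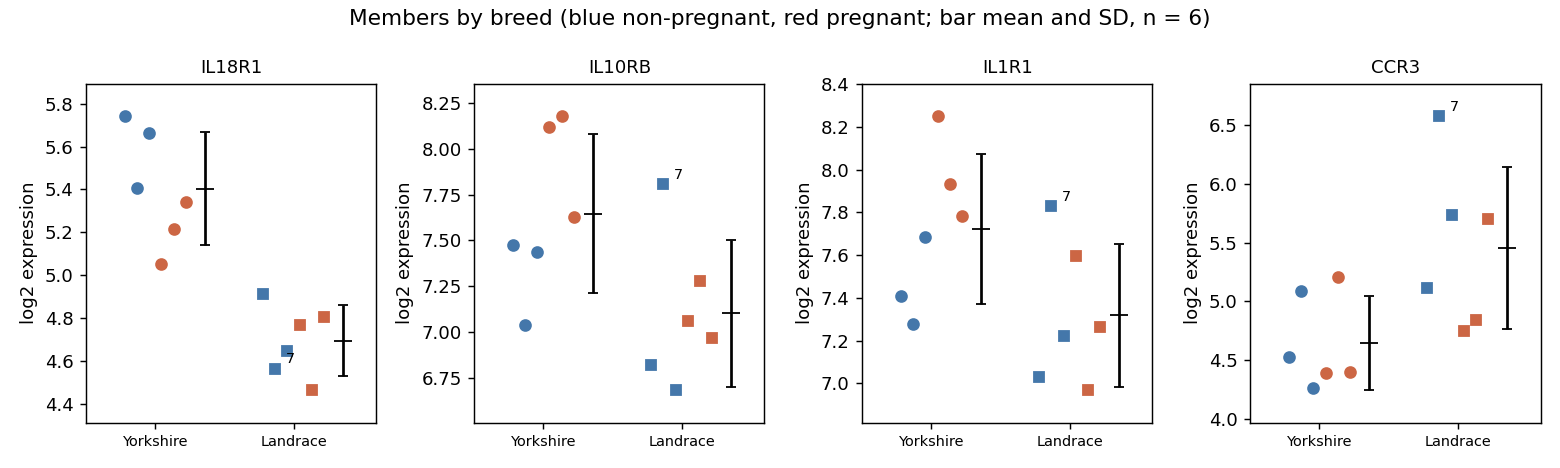
Log2 expression of 4 receptor genes by breed, with non-pregnant sows in blue, pregnant sows in red and the mean with SD beside each breed of 6 sows. For IL18R1 the Landrace sows lie at 4.46 to 4.91 and the Yorkshire sows at 5.05 to 5.74, while the breeds overlap for IL10RB, IL1R1 and CCR3.

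IL10RB was at 6.68 to 7.81 in Landrace and 7.04 to 8.18 in Yorkshire sows, with a difference of -0.54 ± 0.20 (adjusted p = 0.150). Sow 7 held the highest Landrace value, and without it the difference was -0.74 ± 0.13 and passed (adjusted p = 0.00960). IL10RB was thus 1 of the 2 genes called for breed in the 11 sows without sow 7 (3.7%, beside 4.2% of all probe sets, and 2.29% lower in Landrace). IL15 was higher in Landrace sows by 0.77 ± 0.25 (adjusted p = 0.0978), and this difference passed without pregnant sow 8 (1.00, adjusted p = 0.00951). Sow 8 was the lowest pregnant Landrace sow for IL15, so leaving it out widens this difference by construction. CCR3, the eotaxin receptor of eosinophils, differed by 0.81 ± 0.28 (adjusted p = 0.129) and CCL2 by 1.29 ± 0.61 (adjusted p = 0.262), both with sow 7 as the highest Landrace sow. Without it these differences were 0.59 ± 0.24 for CCR3 (adjusted p = 0.198) and 0.67 ± 0.33 for CCL2 (adjusted p = 0.305). Another, dim probe set of IL17B, below the lower quartile on 8 arrays, was lower in Landrace sows by 0.86 (adjusted p = 0.0178), while the brightest gave 0.06 (adjusted p = 0.803). A sign of RNA integrity moved with breed, since the signal of the 3' end of GAPDH minus that of its 5' end, from the array's controls, was 1.07 ± 0.14 in Landrace and 1.49 ± 0.13 in Yorkshire sows (SD, n = 6 each, exact permutation p = 0.00216, two-sided), with sow 7 the lowest at 0.869. Its part in the breed differences was not tested.

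Within the breeds no gene of the 54 passed for pregnancy. In Yorkshire sows 0.0% of all probe sets passed and in Landrace sows 1.03% (limma, 3 against 3 sows, spread pooled over 4 groups). At an unadjusted p under 0.05 there were 5 of the 54 in Yorkshire (9.26%, beside 15.3%) and 6 in Landrace sows (11.1%, beside 15.5%). In Yorkshire sows IL11RA differed by -1.08 ± 0.35 (adjusted p = 0.185), and it passed without pregnant sow 12, at -1.51 (adjusted p = 0.0149). In Landrace sows IL15 differed by 0.96 ± 0.36 (adjusted p = 0.232), and it passed without pregnant sow 8, at 1.49 (adjusted p = 0.00955). Sow 12 was the highest pregnant sow for IL11RA and sow 8 the lowest pregnant Landrace sow for IL15. Leaving them out therefore widens these differences by construction. Without sow 7, 0 of the 54 passed within either breed, beside 0.146% of all probe sets in Yorkshire and 1.12% in Landrace sows. In Landrace sows 15 of the 54 differences lay above 0 with sow 7 (27.8%, beside 54.8% of all probe sets). Without it there were 35 (64.8%, beside 54.5%), so the direction of the Landrace set rests on this sow.

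The interaction, the pregnancy effect in Landrace minus that in Yorkshire sows, was called for 0 of the 54 genes and 0.0% of all probe sets. At an unadjusted p under 0.05 there were 3 (5.56%, beside 4.01%). CCL21, a chemokine of lymphatic endothelium, differed by 0.73 ± 0.28 in Landrace and -0.40 ± 0.28 in Yorkshire sows, an interaction of 1.14 ± 0.40 (unadjusted p = 0.0159 in limma, adjusted p = 1.00). IL27RA, the interleukin-27 receptor, differed by -0.55 ± 0.15 and 0.06 ± 0.15, an interaction of -0.61 ± 0.22. CXCL16 differed by -0.58 ± 0.19 and 0.14 ± 0.19, an interaction of -0.72 ± 0.26. Without sow 7, the highest sow for IL27RA, the 3 interactions were 1.09, -0.46 and -0.75 in the order named.

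The genes through which these receptors signal were measured in part. Calls in 4 lists of such genes stand beside 3.95% of all probe sets higher and 3.94% lower with pregnancy, 7.88% in all. Without sow 7 these shares were 4.61% higher and 4.58% lower, 9.19% in all. Of 33 listed atypical chemokine receptors, related cytokines and other CXC chemokines, 8 were measured and 1 rose with pregnancy, AMCF-II, a porcine neutrophil-attracting CXC chemokine, by 0.51 (adjusted p = 0.0119). Its values were 10.55 to 11.19 in pregnant sows and 10.05 to 10.54 in non-pregnant sows, sow 7 included, without overlap, as for 2.7% of all probe sets. Without sow 7 the atypical chemokine receptor CCRL2 rose too, by 0.61 (adjusted p = 0.0249). Sow 7, at 6.46, lay above every pregnant sow for CCRL2 (4.70 to 5.62), so leaving it out widens this rise by construction. Of 27 genes of the JAK, STAT and SOCS families, 16 were measured, of which STAT2 rose by 0.81 (adjusted p = 0.0416) and SOCS6, a suppressor of cytokine signalling, fell by 0.30 (adjusted p = 0.0320). JAK1, a kinase of the interleukin-4, interleukin-10 and gamma chain receptor complexes, was at 10.16 to 10.70 in pregnant sows and 9.65 to 10.14 in the non-pregnant sows other than sow 7, which was at 10.67. Its difference was 0.34 (adjusted p = 0.127), and without sow 7 it rose by 0.45 (adjusted p = 0.0210).

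Of 31 genes of interleukin-1 and interleukin-17 receptor signalling, 14 were measured and 1 rose, TRAF3IP2, the adaptor of the interleukin-17 receptor, by 0.98 ± 0.17 (adjusted p = 0.00758). It was at 9.60 to 10.96 in pregnant and 9.39 to 9.95 in non-pregnant sows. Without sow 7, MYD88, the adaptor of the interleukin-1 and interleukin-18 receptors, and TNIP1, an inhibitor of NF-kappa B, rose as well, by 0.27 and 0.42 (adjusted p = 0.0423 and 0.00960). Sow 7 lay above every pregnant sow for both, so leaving it out widens these rises by construction. It was at 7.28 against 6.82 to 7.05 for MYD88 and at 8.70 against 8.16 to 8.40 for TNIP1. Of 32 genes of chemokine receptor signalling 21 were measured. The inhibitory G protein subunit GNAI1 rose by 0.86 (adjusted p = 0.00614) and the small GTPase CDC42 fell by 0.32 (adjusted p = 0.0259), with and without sow 7. In Landrace sows GNAI2, the form that predominates in leukocytes, was lower by 0.75 and GRK3, a kinase that desensitises chemokine receptors, by 0.90 (adjusted p = 0.000531 and 0.0329). The interleukin-4 signal transducer STAT6 was lower by 0.51 (adjusted p = 0.0138). These were 2 of the 21 and 1 of the 16 measured genes of their lists, and the other lists held none. Of all probe sets 5.15% were called for breed, with 2.93% lower in Landrace. In the order named, the medians of the 4 lists for pregnancy were -0.01, 0.12, 0.06 and -0.07, beside 0.01 over all probe sets.

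Markers of other cell types also differed with pregnancy. Of 10 endothelial markers 7 rose and of 7 measured stromal markers 4 rose, beside 3.95% of all probe sets. Of 10 epithelial markers 3 fell, beside 3.94% of all probe sets, namely the keratin KRT8 by 0.83, the tight junction protein CLDN7 by 0.47 and the estrogen receptor ESR1, which stroma also carries, by 0.58 (adjusted p = 0.0422, 0.0272 and 0.0257). The epithelial markers CDH1 and CLDN4 differed by 0.34 and 0.42 and were not called (adjusted p = 0.0876 and 0.315). Of the 5 neutrophil markers 1 rose, S100A9 by 7.05 (adjusted p = 0.00517). Of the 2 measured mast cell markers 1 rose, KIT by 0.68 (adjusted p = 0.0123), and by 0.73 without sow 7 (adjusted p = 0.0104). The other, MS4A2, lay below the lower quartile on all 12 arrays and differed by -0.01. None of the 3 measured B and plasma cell markers was called over all sows, BLNK being closest at 0.88 (adjusted p = 0.126). None of the 6 general leukocyte, 9 T cell, 4 natural killer cell or 6 macrophage markers was called over all sows. At an unadjusted p under 0.05 the numbers were 0, 1, 1 and 0, beside 23.2% of all probe sets. Without sow 7 there was 1 rise in each of these 4 lists, beside 4.61% of all probe sets higher. LAPTM5 rose by 0.59, the T cell receptor chain CD247 by 0.63, GNLY by 0.51 and CD14 by 0.89. BLNK then rose too, by 1.15 (adjusted p = 0.0203). Sow 7 lay above every pregnant sow for LAPTM5 (9.16 against at most 8.36), CD14 (7.62 against 6.68) and BLNK (8.06 against 8.03). For CD247 and GNLY it lay within the pregnant range but was the highest non-pregnant sow, at 6.86 and 7.53. Leaving it out therefore widens all of these rises by construction. With sow 7 left out, the summed macrophage level of the 6 pregnant sows, 9.35 to 9.92, lay above that of the 5 non-pregnant sows, 9.13 to 9.23. Sow 7, at 11.90, lay above every pregnant sow, so leaving it out favours this separation by construction. The markers of this list did not move alike. Without sow 7, AIF1 differed by 1.00, CD14 by 0.89, MRC1 by 0.19, CD86 by 0.17, MARCO by 0.11 and CD163 by -0.12. Only CD14 was called. The part of cell numbers in the differences of CXCL9, CCL8, IL4R and IL10RB was not tested.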

How the data were processed

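RNA of the endometrium was measured on 1 Affymetrix array for each of 12 sows, with 3 sows of each breed in both groups of 6. The deposited log2 values were made by the authors with RMA, the packages affy and limma being named in the submitters' processing notes, whose versions are not given in the sources used here. Of 24123 probe sets, 124 manufacturer controls were left out and 23999 tested. In the platform annotation 10069 probe sets had 1 symbol, 198 several and 13732 none, and all 54 genes were found by ID in RefSeq's Sscrofa11.1 gene table. CCL3L1 and CCL4 are close paralogs whose probes may share signal. No sequence or coordinate was used here.

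From these values, limma 3.58.1 in R 4.3.3 fitted pregnancy and breed as additive terms (9 residual degrees of freedom) and a 4-group model (8) for the effects within breeds and their interaction. Tests were two-sided, with Benjamini-Hochberg adjustment over all probe sets, a threshold of 0.05 and no filter on dim signal, and the fitting was tested on simulated data. Arrays give no read depth, so their number limits the precision. The labels give 1 sample per sow, and no scan date or slide was used. Alternatives were other normalization, centring, filtering, priors, weights, probe set rules and each sow left out. The genes and lists were chosen with earlier results of these data known. The genes with full values were those called in any comparison. In each role they also included the 2 with the highest mean, the 2 with the smallest p for pregnancy and the 1 for breed. The 3 with the smallest interaction p and genes with 1 sow apart or groups without overlap completed them, and other genes are given as examples chosen after their values were seen.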

Additional observations from a re-analysis of the deposited data

Results flagged for a closer look

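Among the 6 sows of a group, 1 sow's value was set apart when its gap to the next sow divided by the whole range exceeded Dixon's 95% critical value for 6 values, which chance passes in about 5% of groups. In the non-pregnant group this held for 20 of the 54 genes (37.0%), beside 9.11% of all probe sets. For 19 of them (35.2%, beside 2.71%) non-pregnant sow 7 was the sow set apart, as the highest. Its chemokine values were 9.71 for CCL19, 10.67 for CCL2, 6.41 for CCL3L1, 8.96 for CCL4, 7.51 for CCL8, 12.59 for CXCL13, 7.67 for CXCL2, 8.64 for CXCL8 and 9.03 for CXCL9. Its chemokine receptor values were 8.52 for CCR1 and 6.2 for CCR7. Its interleukin values were 6.24 for IL10, 6.96 for IL16, 8.73 for IL18 and 6.96 for IL34. Its interleukin receptor values were 6.30 for IL13RA1, 8.75 for IL2RG, 8.44 for IL4R and 5.34 for IL7R. The twentieth gene was IL2RA, the alpha chain of the interleukin-2 receptor, where non-pregnant sow 11 was the lowest at 4.42 and the other 5 lay between 4.58 and 4.67.

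In the pregnant group 1 gene of the 54 was set apart (1.85%, beside 6.81% of all probe sets). It was IL17B, at 6.43 in pregnant sow 10 and between 5.92 and 6.11 in the other 5.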

How the results depend on the processing

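Of 791 settings of 41 named differences, 721 kept their direction and side of the threshold, 0 were lost and 54 reversed, in 18 of the differences. In all 17 newly passed, 16 with their direction kept and 1 among the reversed, CCL4 without sows 7 and 12. No paired analysis was possible because the replicate numbers are not shared between the groups. Over all sows 0 genes rose and 0 fell with pregnancy. A filter on dim probe sets, which kept 20 of the 54 genes, gave 1 rise (IL15), array weights 2 rises (CCL8 and IL15) and 1 fall (IL11RA), and leaving out 1 sow 0 to 4 rises and 0 to 1 fall. Without sows 7 and 12 together there were 5 rises and 1 fall. For breed, 0 genes were higher and 1 lower; the filter gave 0 lower because IL18R1 was not kept, array weights 2 lower, 1 sow left out 0 to 1 higher and 1 to 2 lower, and both sows left out 2 lower. Within Yorkshire sows array weights gave 2 rises and 2 falls, both sows left out 1 and 1, and 1 sow left out 0 to 1 fall. Within Landrace sows 1 sow left out gave 0 to 1 rise. Calls in the interaction did not move under any setting run.

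Of the pregnancy differences, those that reversed with array weights were 0.062 for CCL4, 0.26 for CCR1, 0.031 for CCR7, 0.11 for CXCR4, 0.027 for IL10 and 0.031 for IL2RG, and with median centring -0.012 for IL18BP. Leaving out 1 sow, or sows 7 and 12 together, gave ranges of -0.14 to 0.58 for CCL19, -0.25 to 0.0037 for CCL3L1, -0.47 to 0.41 for CCL4, -0.26 to 0.13 for CCL5, -0.36 to 0.50 for CCR1, -0.048 to 0.098 for CCR7, -1.24 to 0.38 for CXCL13, -1.28 to 0.00055 for CXCL8, -0.31 to 0.39 for CXCR4, -0.23 to 0.12 for CXCR6, -0.23 to 0.15 for IL10, -0.048 to 0.18 for IL13RA1, -0.26 to 0.12 for IL16, -0.69 to 0.22 for IL18, -0.061 to 0.16 for IL18BP, -0.44 to 0.26 for IL2RG, -0.039 to 0.20 for IL34 and -0.31 to 0.065 for IL7R. The cause was not tested. Signal near background limits the interleukins, 7 of which lay below the lower quartile on every array.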
